A study of Mus musculus with 32 samples.

Results

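The Zscan4 family is a cluster of near-identical mouse genes on chromosome 7, and every row of the deposited FPKM table whose symbol starts with Zscan4 was taken as a member. The rule found 9 of 54532 genes: Zscan4a, Zscan4b, Zscan4c, Zscan4d, Zscan4e, Zscan4f, Zscan4-ps1, Zscan4-ps2 and Zscan4-ps3. Their levels were followed in 32 libraries, each made from 1 metaphase II egg or 1 embryo of 2 cells. FPKM scales the reads of a gene to its length and to the total reads of the library, and in this table the length of a gene is its whole genomic span, introns included. The 9 spans measured 4305 to 4816 bp, so levels could be compared between members.

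Zscan4 genes encode proteins with a SCAN domain, through which such proteins pair, and zinc fingers that bind DNA. In the mouse they are known as a hallmark of the 2-cell stage, when the embryo starts to transcribe its own genome, and of a rare transient state of embryonic stem cells. In stem cells the family is known for lengthening telomeres through recombination and for promoting DNA demethylation, and the homeodomain protein Dux, which appears briefly at the start of genome activation, is known to switch it on.

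The groups were 3 WT eggs, 3 eggs labelled Trp53 KO, 8 WT and 6 MZ-KO early embryos, and 6 WT and 6 MZ-KO late embryos. Trp53 encodes p53, a transcription factor of the DNA damage response. MZ-KO embryos lack the gene from both parents, since Trp53 KO females were crossed with Trp53 KO males. The KO allele came from a Trp53 flox allele around exons 2 to 10 that was deleted with the germline driver Ddx4::Cre, on a mixed background, and the WT controls came from Trp53 flox/flox mice, so they carry the floxed allele. Early embryos were taken 2 to 3 hours after the first cleavage, typically at 28 to 32 hours after hCG, the hormone that triggers ovulation. Zygotes were harvested at 24 hours and cultured in KSOM medium, and late embryos were taken at 48 hours. The number of females or litters behind a group is not in the labels, so p-values measure only the spread between single eggs or embryos. Library numbers below follow the order of the columns and serve as names alone.

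A few facts of the whole series bear on the family. The FPKM scale of a library rested on 7240000 to 27420000 reads (median 18290000), so 3 reads of a Zscan4 gene corresponded to an FPKM below 0.1. Trp53 RNA averaged 7.86 FPKM ± 2.13 (SD, n = 3) in WT eggs and 8.19 ± 1.75 (SD, n = 3) in eggs labelled KO. WT early embryos had 6.05 ± 2.64 (SD, n = 8) and MZ-KO early embryos 0.769 ± 0.326 (SD, n = 6), without overlap. Late embryos had 3.24 ± 2.31 in WT and 2.82 ± 1.38 in MZ-KO (SD, n = 6 each). Trp53 RNA thus separated the early groups only. Because FPKM counts the whole span and not the deleted exons alone, the genotype of the KO eggs and the MZ-KO late embryos rests on their labels. All 12 oocyte markers reached FPKM 1 in each group and none of 11 cumulus and granulosa cell markers did in any library. WT early library 3, which has the highest Zscan4 levels, was also the library least like its own group. Its median Spearman correlation was 0.808, against 0.864 to 0.889 for the other WT early libraries. The next lowest of the series was 0.816, in a late MZ-KO library. The sums, spreads and correlations that WT early library 3 enters are also given without it.

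The 9 genes lie within 820 kb, at chr7:10794242-11614112 of build mm10, 5 on the minus strand and 4 on the plus strand, and no other annotated gene overlaps any of them. From left to right they are Zscan4a, Zscan4b, Zscan4c, Zscan4-ps1, Zscan4d, Zscan4e, Zscan4f, Zscan4-ps2 and Zscan4-ps3. A further 44 genes lie inside the interval, of which 25 reached FPKM 1 in some library. The highest value among them was 18.5 FPKM, of the pseudogene Gm45551. RefSeq lists Zscan4b, Zscan4c, Zscan4d and Zscan4f as protein coding and the other 5 as pseudogenes, whereas GENCODE lists all but Zscan4a as protein coding.

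Spliced transcripts of the members were 96.6% to 99.8% identical in pairwise alignments. The closest pairs were Zscan4-ps2 and Zscan4f at 99.8%, Zscan4b and Zscan4e at 99.7%, and Zscan4c and Zscan4f at 99.5%. Of all 50-base windows of the Zscan4f transcript, 95.3% also occur in another member. The share was 85.5% for Zscan4c, 49.6% for Zscan4d and 48.4% for Zscan4-ps1. How the authors treated reads that match several genes is not given in the sources used here. Values of a single copy are therefore uncertain, least so for Zscan4d and Zscan4-ps1 in terms of windows of their own, and the sum over all members is reported beside them.

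RefSeq promoter windows (GRCm38.p6, 250 bases before to 50 after the start) were at hand for Zscan4b, Zscan4c, Zscan4d and Zscan4f, and were 95.3% to 99.3% identical in pairs. The 146 bases that end at the TATAAA motif are shown for these 4 genes, to let the near-identity of the copies and the few bases that differ be seen. Capitals mark TATAAA and the 8 bases TGATTCAA or their counterpart, which match the first letters of the motif known for Dux. Both were picked out after the sequences had been seen.

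Zscan4b, chr7:10905076-10905221, minus strand: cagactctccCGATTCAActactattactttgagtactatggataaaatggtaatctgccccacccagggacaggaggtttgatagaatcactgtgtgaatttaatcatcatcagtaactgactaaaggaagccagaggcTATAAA

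Zscan4c, chr7:11005551-11005696, plus strand: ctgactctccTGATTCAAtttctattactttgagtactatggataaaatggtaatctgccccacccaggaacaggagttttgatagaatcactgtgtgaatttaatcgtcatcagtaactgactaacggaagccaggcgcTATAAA

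Zscan4d, chr7:11166208-11166353, minus strand: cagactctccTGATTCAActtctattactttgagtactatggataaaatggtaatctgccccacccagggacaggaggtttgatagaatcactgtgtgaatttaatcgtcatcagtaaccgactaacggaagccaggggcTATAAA

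Zscan4f, chr7:11397744-11397889, plus strand: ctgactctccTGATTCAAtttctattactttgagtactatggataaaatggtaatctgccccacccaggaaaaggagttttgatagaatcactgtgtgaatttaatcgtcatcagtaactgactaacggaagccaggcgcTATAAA

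Within these windows Zscan4f differed from Zscan4c by 1 base (C72A, Zscan4c base first, counted from 1 at the 5′ end), Zscan4d by 6 and Zscan4b by 10. One of the Zscan4b differences, T11C, falls on the first base of TGATTCAA, which is present in the other 3 promoters and in 0.581% of 32851 RefSeq promoters of the same length. TATAAA is present in all 4 and in 13.6% of promoters, and starts 31 to 65 bases before the annotated start. The complete Dux motif (0.0335% of promoters), the motif TGCACAC reported for Zscan4 protein (4.4%) and the Obox motif GGATTA (7.06%) were absent from the 4 promoters. Both strands were searched for each motif.

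Zscan4 RNA was nearly absent from eggs apart from Zscan4-ps1, and was present in every 2-cell embryo. The family sum was 2.12, 9.32 and 10.3 FPKM in the 3 WT eggs and 8.0, 4.14 and 6.84 in the 3 eggs labelled KO. Zscan4-ps1 made up 62.9% to 89.2% of it. Zscan4-ps1 itself was at 1.33, 8.3 and 9.14 FPKM in WT eggs and at 7.13, 3.26 and 5.16 in KO eggs, so the groups overlapped. Without Zscan4-ps1 WT eggs summed to 0.974 ± 0.17 FPKM and KO eggs to 1.14 ± 0.468 (SD, n = 3 each). Zscan4d, known as the main member in 2-cell embryos, had the highest mean after Zscan4-ps1. It was at 0.297, 0.476 and 0.731 FPKM in WT eggs and 0.868, 0.276 and 0.649 in KO eggs. Zscan4b and Zscan4e were listed at 0 in all 3 KO eggs.

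Between KO and WT eggs, Zscan4-ps1 was the member that passed the filter for the test, FPKM 1 or more in at least 3 libraries. Its log2 difference was -0.01 ± 0.55 (SE), with an adjusted p of 0.997 (limma, Benjamini-Hochberg over 6607 genes), where 0.333% of all genes tested were called in either direction. Leaving out each library in turn gave -0.7 to 0.36.

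**Figure D1:**
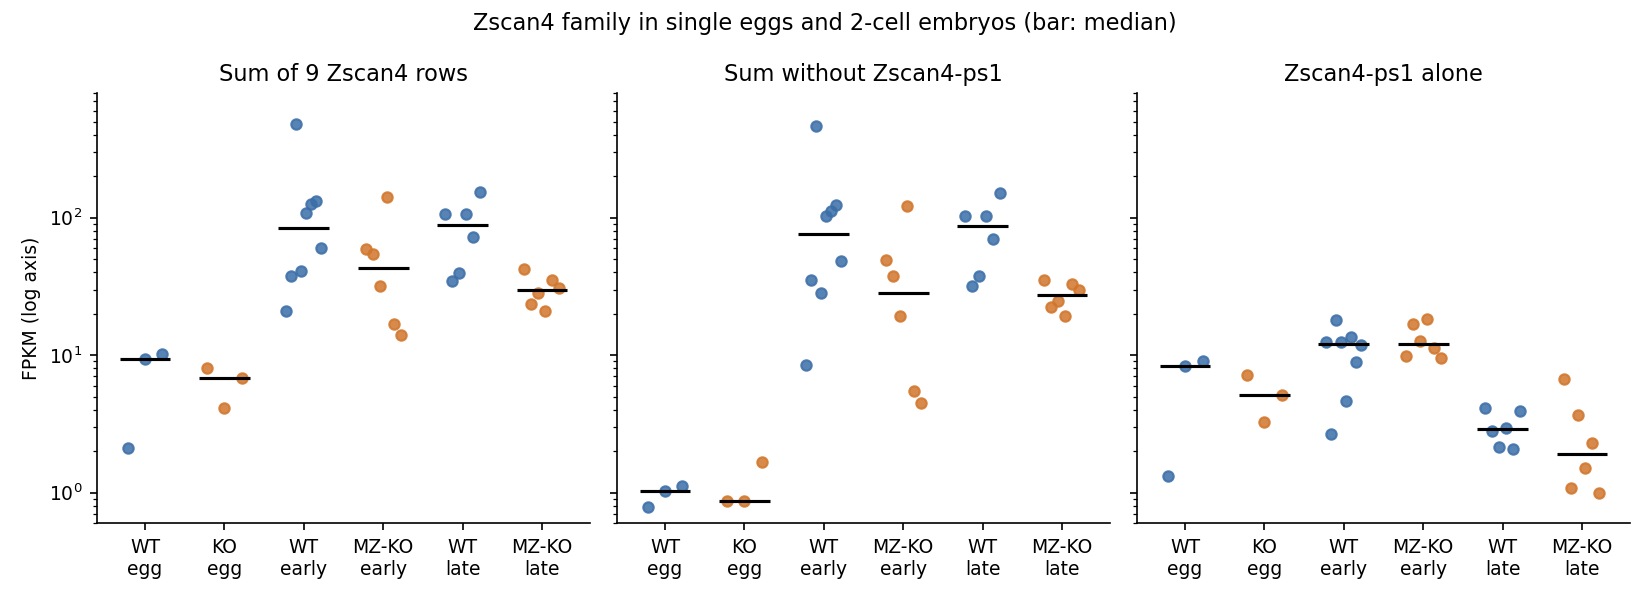
Sum of the FPKM values of 9 Zscan4 rows, the same sum without Zscan4-ps1, and Zscan4-ps1 alone, on a log axis, for each of 32 libraries (points) with the median of each group (bar). Without Zscan4-ps1 eggs lie between 0.785 and 1.68 FPKM and every embryo lies above them, at 4.48 or more, while Zscan4-ps1 is present in eggs and its group medians are lowest in late embryos.

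In early WT embryos the family sum ranged from 20.9 to 481 FPKM with a median of 84.0, and every one of 8 embryos was above all 3 WT eggs. The mean was 126 ± 150 (SD, n = 8), and 75.1 ± 45.8 (SD, n = 7) without library 3, the highest. The sum without Zscan4-ps1 averaged 0.974 FPKM in eggs and 115 in early embryos, 118 times as high. Without library 3 the embryo mean of that sum was 65.6.

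All 9 members entered the fit of WT early embryos against WT eggs, and 7 were called higher, where 51.3% of all genes tested were called in either direction and 30.4% as higher. All members but Zscan4-ps1 were below FPKM 1 in every egg and passed the filter through the embryos alone, so a difference upward was fixed by the filter. Their values are therefore a description, with no p. Zscan4f had the largest log2 difference, 3.64 ± 0.81 (SE). Its FPKM values were 0.011, 0.217 and 0.061 in the 3 eggs, against a lowest value of 2.08, a median of 13.2 and a highest value of 103 in embryos. The log2 difference was 3.34 ± 0.90 (SE) for Zscan4c and 3.12 ± 0.63 (SE) for Zscan4d. For these 3 genes no embryo overlapped the eggs. In WT early embryos the median of Zscan4d, 10.2 FPKM, was below those of Zscan4f (13.2) and Zscan4c (12.4). In WT late embryos its median was the highest of the members, at 19.5 FPKM. Both rankings carry the limit of single copies.

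Zscan4b and Zscan4e differed least of these 8, with log2 differences of 1.43 ± 0.50 and 1.75 ± 0.72 (SE). Zscan4b reached a mean of 2.31 ± 2.21 FPKM (SD, n = 8). Zscan4-ps1, the member present in eggs, was not called, with a log2 difference of 0.78 ± 0.54 (SE) and an adjusted p of 0.241 (limma). Its mean was 10.6 ± 5.0 FPKM (SD, n = 8) against 6.25 ± 4.29 (SD, n = 3) in WT eggs, and 3 of 8 embryos lay within the range of the eggs. Without library 3 the number of members called higher was again 7, a count that the filter favours in the same way and that is a description.

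MZ-KO early embryos were compared with KO eggs in the same way. The family sum without Zscan4-ps1 averaged 39.7 ± 44.1 FPKM (SD, n = 6) in embryos, with a lowest value of 4.48, a median of 28.3 and a highest value of 122. Of 8 members in the fit 5 were called higher, where 49.2% of all genes tested were called in either direction and 29.2% as higher. Here too all but Zscan4-ps1 had passed the filter through the embryos alone, so the count is a description. The log2 differences were 2.38 for Zscan4d, 2.20 for Zscan4c, 2.10 for Zscan4-ps2 and 2.06 for Zscan4f. Zscan4-ps1, which was above FPKM 1 in all 3 KO eggs, rose by 1.19 ± 0.26 (SE, adjusted p = 0.00406, limma) and was above every KO egg in 6 of 6 embryos. Leaving out KO egg library 2 left 1 call, and KO egg library 1 or 3 left 2. Leaving out early MZ-KO library 1 or 2 left 2 and library 4 left 3, each of 5 members that still passed the filter.

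Whether the step from egg to early embryo differed by genotype was tested as the difference of both steps. None of 9 members was called, where 0.351% of all genes tested were. The estimates ran from -1.75 for Zscan4-ps3 (95% interval -4.51 to 1.01) to 0.41 for Zscan4-ps1 (95% interval -0.97 to 1.80), so sizeable differences either way lay within the intervals. At an unadjusted p below 0.05 the limma test also gave no member, the lowest p being 0.113 for Zscan4b.

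**Figure D2:**
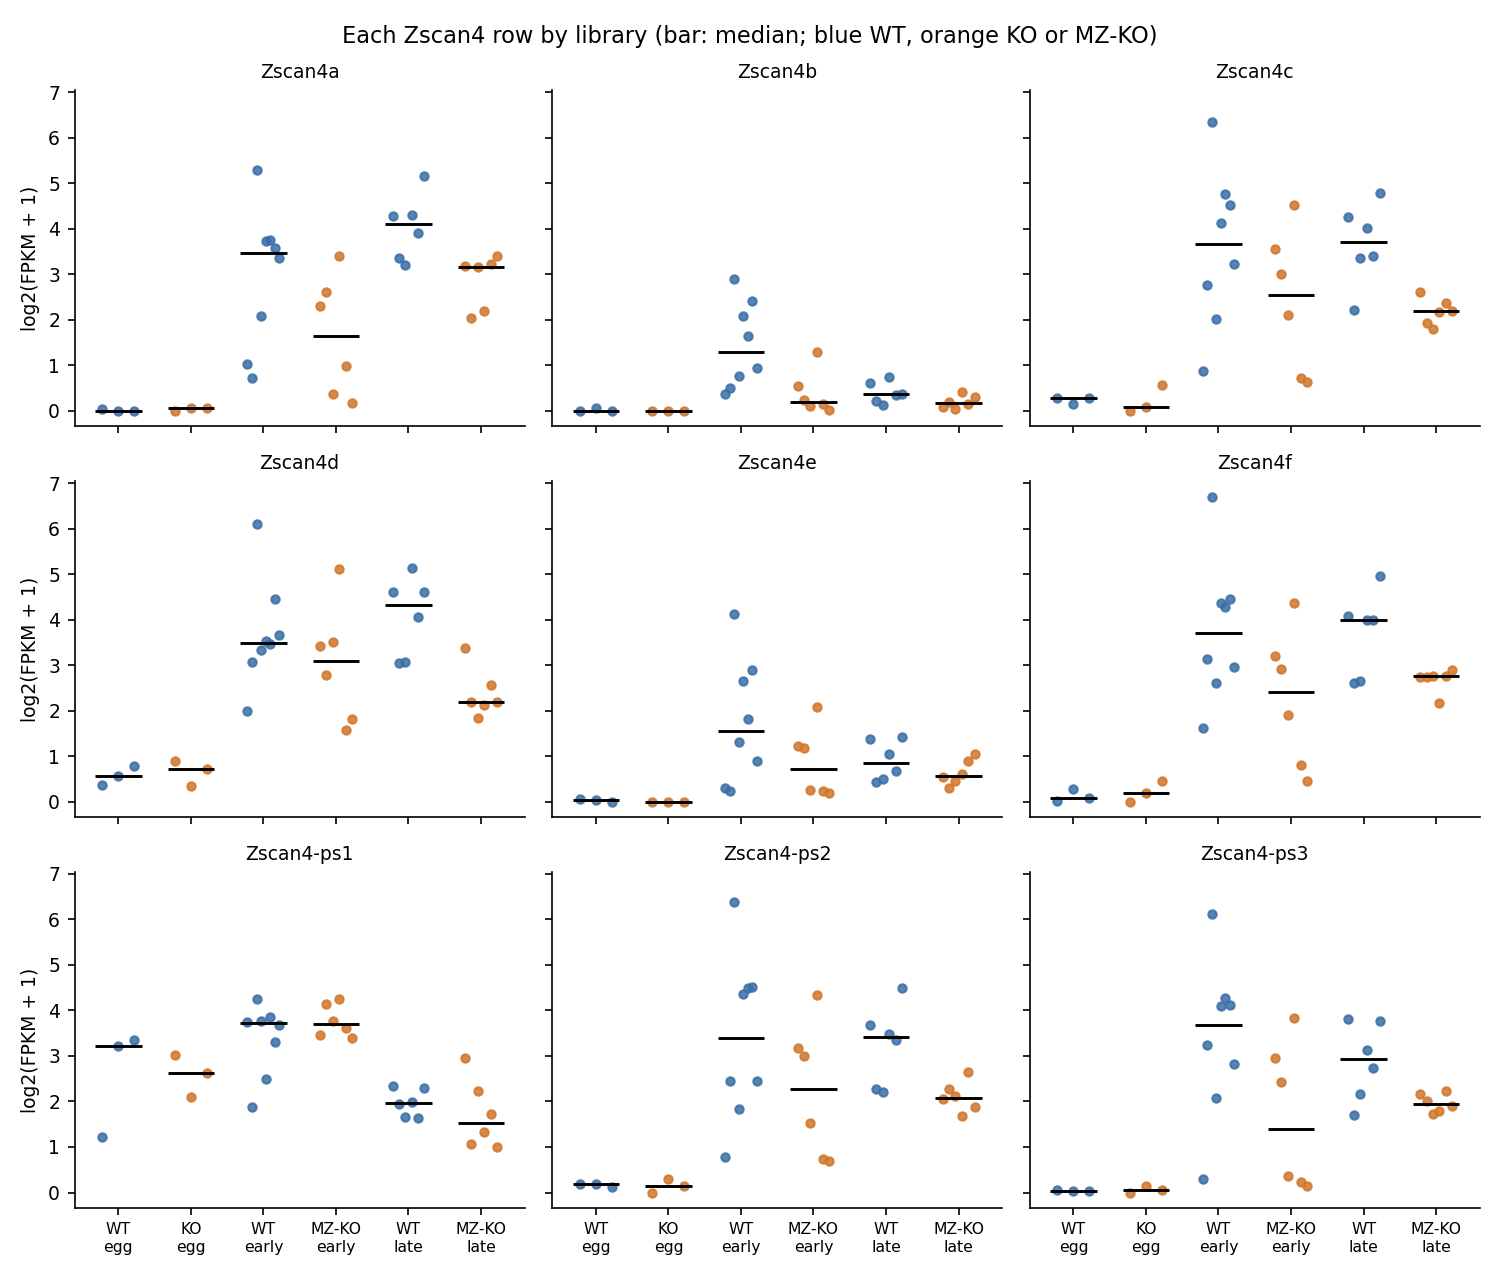
log2(FPKM + 1) of each Zscan4 row in every library (points, blue for WT and orange for KO or MZ-KO) with the group median (bar). Apart from Zscan4-ps1 every row lies below 1 on this scale in eggs, with Zscan4d the highest of them. Early embryos are widely spread, and in late embryos the orange points of Zscan4c and Zscan4d lie mostly below the blue ones.

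Early embryos of 1 genotype differed widely from each other. In WT embryos Zscan4c ranged from 0.851 to 80.0 FPKM with a median of 12.4, and Zscan4-ps3 from 0.23 to 68.8 with a median of 12.3. In MZ-KO embryos Zscan4c ranged from 0.563 to 22 with a median of 5.19. On the log2(FPKM + 1) scale the SD between WT embryos was 1.72 for Zscan4c and 1.82 for Zscan4-ps2, against a median SD of 0.31 over 7507 genes with a mean FPKM of 1 or more. Of those genes, 99.5% and 99.7% varied less. The SD of Zscan4-ps1 was 0.80, and 89.7% of genes varied less. Both upper ends in WT embryos came from library 3. Without it the highest Zscan4c value was 26.4 and the highest Zscan4-ps3 value 18.4 FPKM, and the SD was 1.42 for Zscan4c and 1.48 for Zscan4-ps2, beside a median of 0.27 over 7405 genes, 99.2% and 99.4% of which varied less. The SD of Zscan4d went from 1.18 to 0.74 when library 3 was left out.

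Members other than Zscan4-ps1 were high or low in the same embryos. After the group means were subtracted, the 28 pairs among these 8 rows correlated with r between 0.77 and 0.99 over the 14 early libraries, and the 8 pairs with Zscan4-ps1 with r between 0.17 and 0.51. Over the 13 libraries without WT library 3 the ranges were 0.67 to 0.98 and -0.05 to 0.39. These values are descriptive, since the rows share libraries and can share reads. Zscan4-ps1 was the largest part of the lowest sums: it made up 59.6% of the sum in the WT embryo with the lowest sum (20.9 FPKM) and 68.0% in the MZ-KO embryo with the lowest sum (14 FPKM). In the highest WT embryo, at 481 FPKM, it made up 3.76%. That embryo also had the most genes at FPKM 1 or more of the early libraries, 7990, and the lowest WT embryo had 7192. The part of this in the sums was not tested. As each library holds a whole embryo, a high level in 1 of its cells and a lower level in both cannot be told apart.

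**Figure D3:**
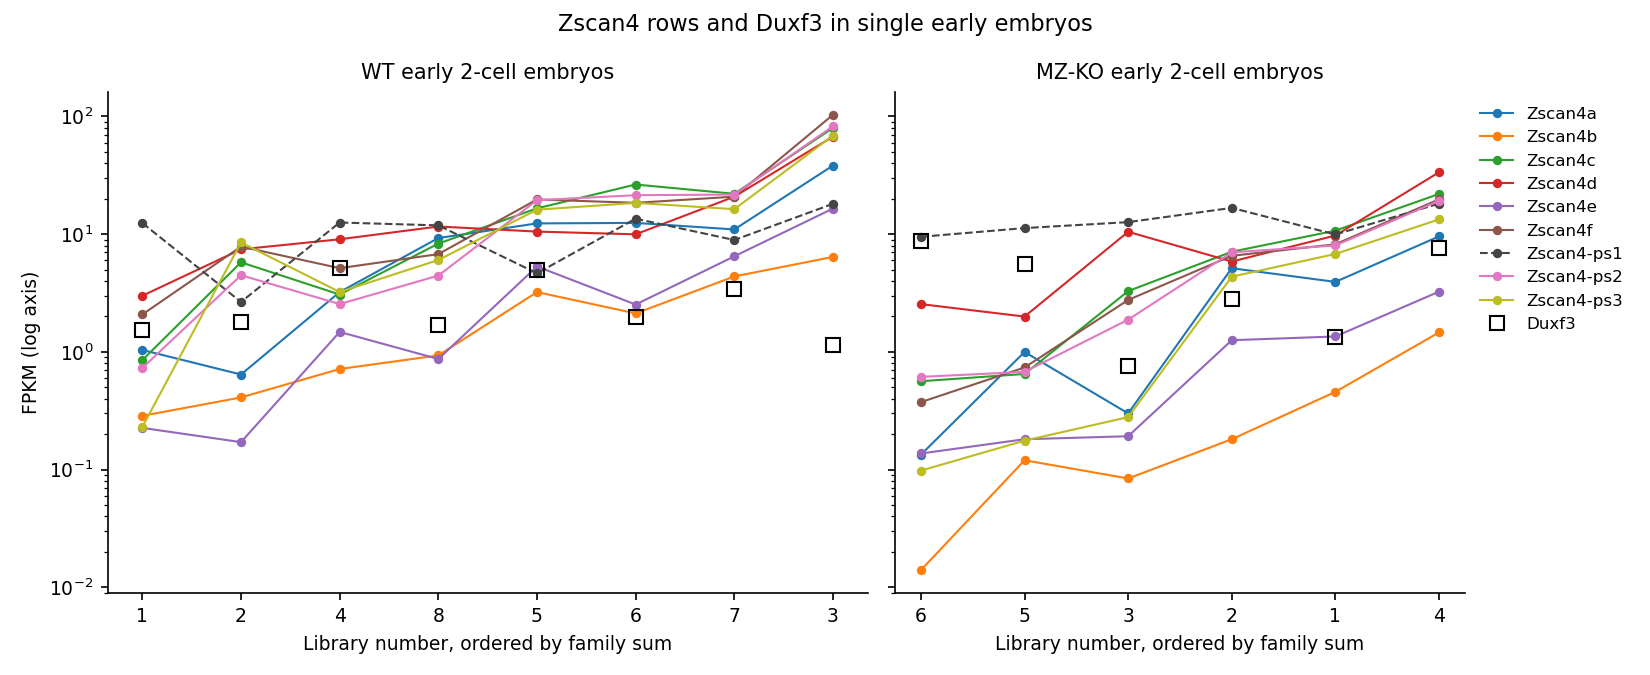
FPKM on a log axis of each Zscan4 row (lines, Zscan4-ps1 dashed) and of Duxf3 (squares) in 8 WT and 6 MZ-KO early embryos, ordered within each group by the family sum. All rows but Zscan4-ps1 broadly climb with the sum, a climb that the order favours since the sum is made of these rows. Zscan4-ps1 stays between 2.65 and 18.2 FPKM, and Duxf3, which is not part of the sum, does not follow the order.

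Between MZ-KO and WT early embryos the family sum was lower on average and the groups overlapped widely. The mean was 52.7 ± 46.8 FPKM (SD, n = 6) in MZ-KO against 126 ± 150 (SD, n = 8) in WT embryos, and 75.1 in WT without library 3. Medians were 43 and 84.0. In MZ-KO, 2 of 6 embryos lay below every WT embryo, and 1 WT embryo lay above every MZ-KO embryo. Of 8 members tested none was called by limma, where 3.28% of all genes tested were, and none had an unadjusted p below 0.05. All but Zscan4-ps1 were estimated lower, with a median log2 difference of -1.16, beside 0.05 for all genes. The largest was -1.72 for Zscan4-ps3 (95% interval -3.49 to 0.04, adjusted p = 0.245). For Zscan4c it was -1.16 (95% interval -2.90 to 0.58), and -0.76 without WT library 3. The intervals of all 8 thus include 0, and those of the 5 members called at the late stage also include the differences found there.

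Zscan4b did not pass the filter of FPKM 1 or more in at least 6 early libraries, which 4 of 8 WT and 1 of 6 MZ-KO embryos reached. It had a lowest value of 0.286, a median of 1.53 and a highest value of 6.41 FPKM in WT embryos and 0.014, 0.15 and 1.46 in MZ-KO embryos, 4 of which lay below every WT embryo. In 1 fit over all 6 groups, which kept this gene, its log2 difference was -1.06 with an adjusted p of 0.0412 (limma). It passed the filter there through 4 WT and 1 MZ-KO early embryos, the only libraries at FPKM 1 or more. That fit also shares the spread of the other groups. The SD on the log2(FPKM + 1) scale was 0.94 and 0.48 in WT and MZ-KO early embryos, and 0.23 and 0.14 in late ones. This call is therefore a description.

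At the late stage the family was lower in MZ-KO embryos. The family sum had a lowest value of 34.6, a median of 88.8 and a highest value of 155 FPKM in 6 WT embryos, against 20.9, 29.8 and 42.0 in 6 MZ-KO embryos. All 6 MZ-KO embryos lay below the WT median and 4 lay below every WT embryo, and the groups overlapped through WT libraries 2 and 3. The means were 85.6 ± 45.9 and 30.2 ± 7.77 (SD), a ratio of 2.83. Of 7 members tested, 5 were lower and none higher, where 31.9% of all genes tested were called in either direction and 13.4% as lower. The filter did not favour WT embryos here, since 6 of the 7 were at FPKM 1 or more in all 12 late libraries. The median log2 difference of the members was -1.14, beside 0.07 for all genes. Without a filter on low values 2 members were called, Zscan4c and Zscan4d.

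Zscan4d fell by 1.71 ± 0.38 on the log2 scale (SE, adjusted p = 0.00503, limma). Its lowest, median and highest values were 7.25, 19.5 and 34.2 FPKM in WT and 2.6, 3.56 and 9.33 in MZ-KO embryos. Here 5 of 6 MZ-KO embryos lay below every WT embryo, and library 1 was the one that did not. Zscan4c, the member best known from embryonic stem cells, fell by 1.49 ± 0.35 (SE, adjusted p = 0.00724). It was at 3.63, 12.4 and 26.7 FPKM in WT and at 2.48, 3.55 and 5.12 in MZ-KO embryos, and 5 of 6 WT embryos lay above every MZ-KO embryo. Both calls held when any library was left out, with adjusted p up to 0.0128 and 0.0181.

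Zscan4a fell by 1.17 ± 0.35 (SE, adjusted p = 0.0225, limma), from a median of 16.3 FPKM in WT to 8.02 in MZ-KO embryos. Zscan4-ps2 fell by 1.14 ± 0.35 (SE, adjusted p = 0.0259), from a median of 9.67 to 3.25, and Zscan4f by 1.03 ± 0.36 (SE, adjusted p = 0.0426), from 14.9 to 5.73. These 3 calls were close to the threshold. Leaving out MZ-KO library 4 left 2 members called, and leaving out MZ-KO library 2 or 6 or WT library 1 or 4 left 3. Over all 12 omissions the log2 differences of these 3 genes ran from -1.35 to -0.78.

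Zscan4-ps3 missed the threshold at -0.92 ± 0.33 (SE, adjusted p = 0.0512, limma) and passed it under median-ratio scaling of the libraries (-1.07, adjusted p = 0.0211). That scaling moved the median of all genes from 0.07 to -0.07 and the share of higher among all calls from 58% to 40.4%. Zscan4-ps1 was at -0.27 (95% interval -0.94 to 0.40, adjusted p = 0.539), with medians of 2.9 and 1.9 FPKM. Zscan4b and Zscan4e were too low to be tested. Zscan4b averaged 0.34 ± 0.22 FPKM in WT and 0.151 ± 0.112 in MZ-KO embryos, and Zscan4e 0.946 ± 0.583 and 0.583 ± 0.313 (SD, n = 6 each). In 1 fit over all 6 groups, which shares the spread of the early embryos, Zscan4d remained called (-1.71, adjusted p = 0.0114) and Zscan4c was at an adjusted p of 0.0799.

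Zscan4-ps1 and the other members differed in how far late embryos of 1 genotype were spread. The SD on the log2(FPKM + 1) scale was 0.29 for Zscan4c, 0.26 for Zscan4f and 0.21 for Zscan4-ps3 in MZ-KO and 0.90, 0.92 and 0.86 in WT embryos. For Zscan4d it was 0.54 and 0.87, and for Zscan4a 0.59 and 0.72. Zscan4-ps1 went the other way, with 0.76 in MZ-KO and 0.31 in WT embryos. The difference in spread was not tested.

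The authors' deposited table holds 1 comparison whose groups it does not name. Over 7867 genes its log2 fold change correlated at 0.9995 with the log ratio of WT to MZ-KO late embryos, and at 0.1498 and 0.0236 with the early and egg ratios, so it was read as WT over MZ-KO in late embryos. It rests on the same embryos and is no second experiment. In the authors' deposited table all 9 members had positive values and 6 had an adjusted p below 0.05. Those 6 included Zscan4-ps3 (authors' deposited table, log2 fold change 1.51, adjusted p = 0.000858) besides the 5 members above. For Zscan4d the authors' deposited table gives 2.23 with an adjusted p of 5e-06, and for Zscan4-ps1 it gives 0.33 with 0.686.

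**Figure D4:**
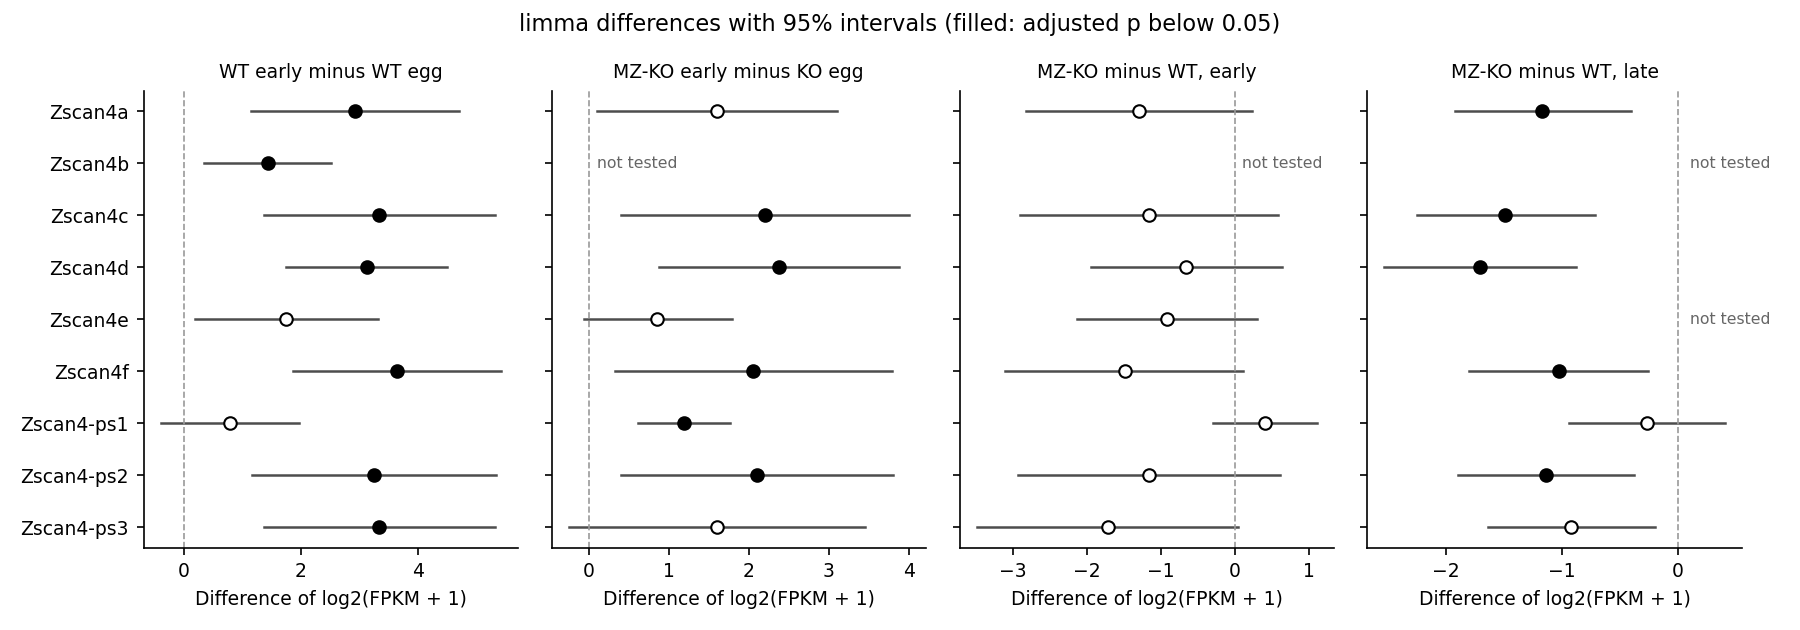
Difference of log2(FPKM + 1) for each Zscan4 row in 4 comparisons with its 95% interval, filled where the limma adjusted p is below 0.05. In both egg comparisons all rows but Zscan4-ps1 passed the filter through embryos alone. Intervals of the early genotype comparison all include 0, and in the late comparison 5 of 7 rows are filled, from -1.71 for Zscan4d to -1.03 for Zscan4f.

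From the early to the late stage Zscan4-ps1 fell in both genotypes and most other members had no call. In WT embryos the median sum was 84.0 FPKM early and 88.8 late. The difference of mean log2(sum + 1) was -0.10 in WT and -0.39 in MZ-KO embryos and took the other sign without Zscan4-ps1, at 0.15 and 0.24. Of 8 members tested 1 was lower, Zscan4-ps1, at a stage step in which 85% of all genes tested were called. It fell by 1.4 ± 0.32 on the log2 scale (SE, adjusted p = 0.000771, limma), from a median of 12.2 to 2.9 FPKM. In MZ-KO embryos 81.7% of all genes tested were called and 2 of 7 members were. Zscan4-ps1 fell by 2.06 ± 0.31 (SE, adjusted p = 2.68e-05), from a mean of 13 ± 3.62 to 2.71 ± 2.2 FPKM (SD, n = 6 each), with no overlap between the stages.

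Zscan4a had the largest upward log2 difference of the members tested in both genotypes. In MZ-KO embryos it rose by 1.22 ± 0.52 (SE, adjusted p = 0.0423, limma), and in WT embryos its log2 difference was 1.09 ± 0.62 (SE) with an adjusted p of 0.111, which became 0.0236 without WT early library 3. The MZ-KO call was lost when early MZ-KO library 3, 5 or 6 or late MZ-KO library 1, 3, 5 or 6 was left out. It was also lost under median-ratio scaling (1.01, adjusted p = 0.0883) and in 1 fit over all 6 groups (adjusted p = 0.0608, limma). The Zscan4a share of the family sum averaged 8.44% ± 4.11 in WT early and 20.7% ± 3.46 in WT late embryos, and 5.13% ± 3.46 and 22% ± 6.73 in MZ-KO embryos (SD). In both genotypes the share in every late embryo was above that in every early one. The sum includes Zscan4-ps1, which fell from early to late, and mean shares of some other members rose too. Without Zscan4-ps1 in the sum the Zscan4a shares of the stages overlapped. Zscan4a was at 9.27 of 48.2 FPKM in WT early library 8 and at 18.4 of 103 in WT late library 1. In MZ-KO embryos it was at 0.998 of 5.53 FPKM in early library 5 and at 3.12 of 22.4 in late library 2. Zscan4b had its highest levels early: its mean was 2.31 FPKM in WT early and 0.34 in WT late embryos, where 6 of 8 early embryos lay above every late one.

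The difference between the genotype effects at the late and early stages was called for none of 8 members, where 20.4% of all genes tested were called. None had an unadjusted p below 0.05 either (limma). For Zscan4d it was -1.05 (95% interval -2.64 to 0.54) and for Zscan4c -0.33 (95% interval -2.33 to 1.68). The late difference was thus not shown to differ from the early one. Under median-ratio scaling the estimates of Zscan4-ps2 and Zscan4a took the other sign, at -0.18 and -0.10.

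**Figure D5:**
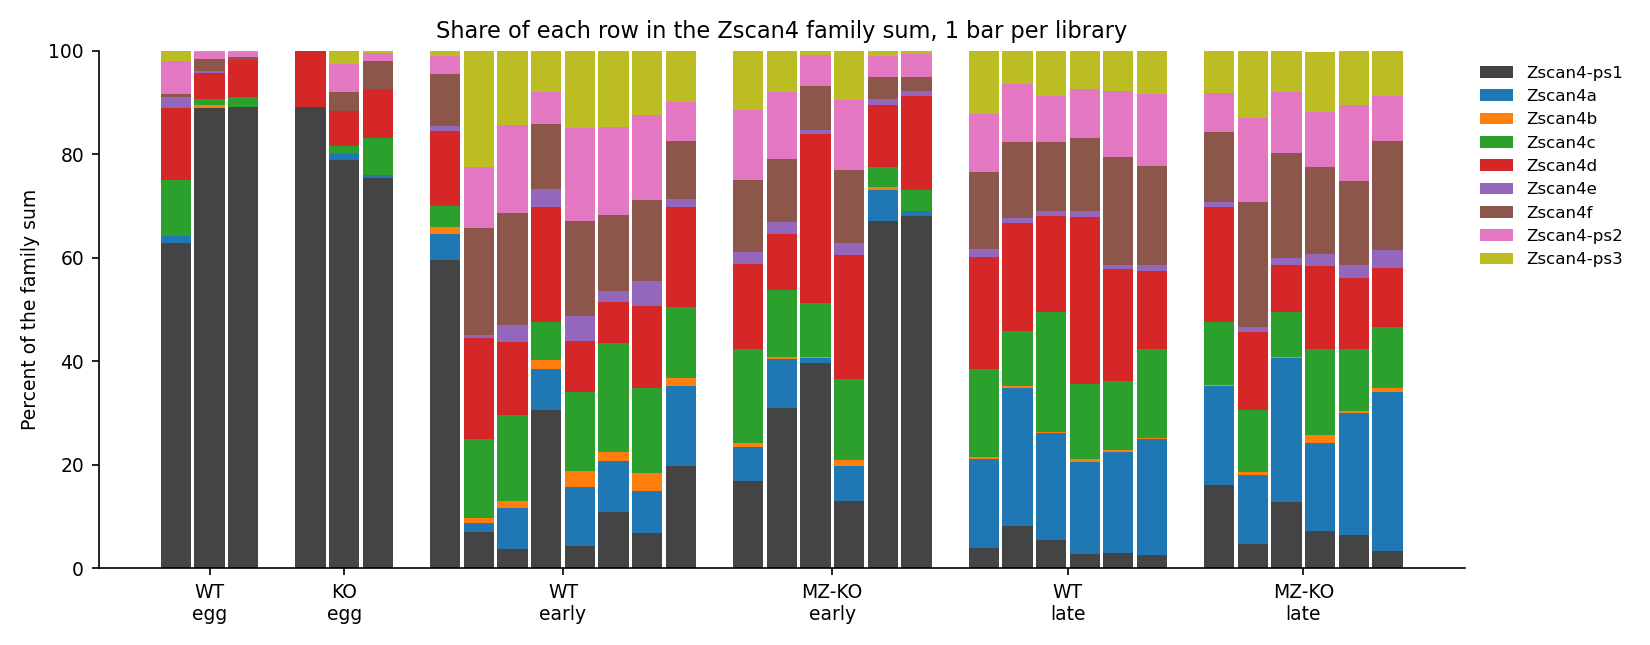
Percent of the family sum contributed by each Zscan4 row, with 1 bar per library grouped by stage and genotype. Zscan4-ps1 (dark) makes up 62.9% or more of the sum in eggs and 16% or less in late embryos. Zscan4a (blue) takes a larger share of this sum, Zscan4-ps1 included, in late than in early embryos.

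Genes around the family were read from lists of reported Dux targets, reported regulators and partners of Zscan4, telomere factors and other SCAN zinc finger genes. Duxf3, the Dux gene in this table, averaged 2.72 ± 1.6 FPKM in 8 WT and 4.49 ± 3.36 in 6 MZ-KO early embryos (SD). It was at 0.338 or less in every egg and late embryo. The log2 difference between early genotypes was 0.40 (95% interval -0.45 to 1.24, adjusted p = 0.605, limma). Within the stage Duxf3 and the family did not rank alike: WT library 3, with the highest Zscan4 sum, had the lowest Duxf3 of its group (1.15 FPKM), and MZ-KO library 6, with the lowest sum, had the highest Duxf3 of its group (8.81). Their r over the 14 early libraries, after subtracting group means, was -0.126, and 0.042 without WT library 3. Duxf3 is itself a multicopy gene, so its values share the limit of the Zscan4 rows.

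Of 35 reported Dux targets other than Zscan4, 29 entered the fit of WT egg against early embryo and 21 were called higher, beside 30.4% of all genes. Of these 29 genes 25 were below FPKM 1 in every egg and passed the filter through the embryos alone, as 17 of 24 did in the KO groups, so these counts are descriptions. There 17 of 24 were called higher, beside 29.2% of all genes. In late embryos 31 were tested between genotypes, and 18 were lower and 1 higher in MZ-KO, where 13.4% of all genes were lower and 31.9% called either way. Their median log2 difference was -1.44, beside 0.07 for all genes. A target could pass this filter through the 6 WT embryos, which favours lower calls. Tdpoz3, called lower, had a lowest value of 2.93 FPKM in WT and a median of 0.099 in MZ-KO embryos. The count and the median are therefore descriptions. The largest falls among them were Gm2022 (-3.20, adjusted p = 0.0138, limma), Gm12794 (-3.18, adjusted p = 0.000312), Gm2016 (-2.92, adjusted p = 0.0243) and Gm4027 (-2.84, adjusted p = 0.00327). Tcstv1 went the other way (1.5, adjusted p = 0.0133). Tcstv1 and Tcstv3 are 2-cell genes also reported to act on telomeres. In early embryos the median log2 difference of 26 targets tested, under the same limit of the filter, was -0.71, beside 0.05 for all genes. Of these targets 1 was called, near the 3.28% of all genes: Tcstv3, which was higher in MZ-KO (1.54, adjusted p = 0.0371). Its values ran from 6.54 to 30.1 FPKM in MZ-KO and from 1.33 to 8.83 in WT embryos. At neither stage was a Tcstv gene called lower. The difference of the genotype effect between late and early was called for 4 of 33 Dux targets, all of them negative. Over all genes 20.4% were called and 8.4% were called negative, so this count does not set the list apart.

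Among 21 reported regulators, 18 were tested at the late stage, and 2 were lower and 1 higher in MZ-KO. That is a smaller share than the 31.9% of all genes called, so the 3 are given as single genes. Nelfa, a pausing factor reported to promote the 2-cell program, fell by 0.55 (adjusted p = 0.0128, limma), from a mean of 5.64 to 3.57 FPKM. Trim28, a co-repressor of retroelements, fell by 0.58 (adjusted p = 0.0207), from 7.79 to 4.92. Pcgf6, a Polycomb subunit, rose by 0.75 (adjusted p = 0.00605), from 4.86 to 8.72. Dppa2 and Dppa4, which are known to act upstream of Dux, were at -0.34 (adjusted p = 0.177) and -0.35 (adjusted p = 0.0721). Rif1, a repressor of the family in stem cells, was at 0.39 (adjusted p = 0.086). None of 13 regulators tested was called between the early genotypes, nor any of 12 between eggs, beside 3.28% and 0.333% of all genes.

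Of 6 reported partners and targets of Zscan4, 3 were tested late and the deacetylase gene Hdac1 was lower in MZ-KO (-0.41, adjusted p = 0.038, limma). None of 8 telomere factors tested was called late, where 31.9% of all genes were. Early, 1 of 6 was, beside 3.28% of all genes: Acd, which encodes the shelterin subunit TPP1, was higher in MZ-KO embryos (0.67, adjusted p = 0.0395), at 69.0 ± 13.9 FPKM (SD, n = 6) against 42.9 ± 9.19 (SD, n = 8). Of 12 other SCAN zinc finger genes, 4 were tested late and 2 were lower in MZ-KO, beside 13.4% of all genes. With 3 to 8 genes tested per list, these counts set no list apart from the rest. Zscan5b fell by 1.59 (adjusted p = 0.000147), from a mean of 54.1 to 17.7 FPKM, and Zscan21 fell by 0.69 (adjusted p = 0.0219), from 17 to 10.0.

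Single markers of other cells were also called between the late genotypes, where 31.9% of all genes tested were. Of 7 blood and immune markers 1 was tested, Hba-a1, and it was higher in MZ-KO (1.94, adjusted p = 0.00223, limma). The summed level of the 7 ranged from 5.15 to 12.6 FPKM in WT and from 14.8 to 74.6 in MZ-KO late embryos, with Ptprc and Cd3e at 0 in all 12. Of 8 sperm markers Prm1 was tested and was lower (-0.70, adjusted p = 0.0493), and the sum ranged from 10.1 to 28.7 FPKM in WT and from 7.6 to 13.5 in MZ-KO, with Acr and Smcp at 0 in all 12. Prm1 alone averaged 15.5 FPKM in WT and 8.8 in MZ-KO. The oocyte marker sum ranged from 68.3 to 121 and from 58.8 to 341 FPKM, and none of its 12 markers was called. In MZ-KO embryos Bcl2l10 alone reached 179 FPKM, beside a median of 9.57. The part of these differences in the Zscan4 levels was not tested.

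The genes whose levels followed the family sum most closely over all 32 libraries, by Pearson r on the log2 scale, were Gm8300 (0.926), BB287469 (0.911), Gm8332 (0.91), Gm4027 (0.908) and Gm8994 (0.903). The first 4 lie on chromosome 12. Gm8300 was at 0 in all eggs and averaged 9.93 FPKM in WT early, 3.37 in MZ-KO early, 8.49 in WT late and 2.79 in MZ-KO late embryos. Gm8332 averaged 140 FPKM in WT and 9.06 in MZ-KO late embryos. Within the early stage, after subtracting group means, the closest over 14 libraries were Usp17la (0.97), a deubiquitinase of the Usp17 family, Gm8723 (0.97), Gm8300 (0.968), Ddit4l (0.963), an inhibitor of mTOR signalling, and Gm47631 (0.958). Without WT early library 3 the r of these genes was 0.898 to 0.909 over 31 libraries and 0.934 to 0.965 over 13. The points of these correlations share the library and its depth.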

How the data were processed

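Single eggs and 2-cell embryos were lysed in 5 uL of buffer and their cDNA was made with SMART-seq v4 and 15 PCR cycles, and tagged with Tn5, per the labels' protocols. The authors deposited FPKM values per library, and for 1 comparison a log2 fold change and an adjusted p-value. TopHat2, DESeq, DESeq2 and build mm10 are named in the submitters' processing notes, with no versions. Low values were whole multiples of 1 read over the genomic span in at least 99.4% of cases (within 0.1 read).

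Here log2(FPKM + 1) was compared with limma 3.58.1 (R 4.3.3, trend and robust, statmod 1.5.0) over genes at FPKM 1 or more in as many libraries as the smallest group, and adjusted with Benjamini-Hochberg over all genes tested; calls had an adjusted p below 0.05. Only the groups compared entered a fit. The pseudocount understates changes of low genes. The pipeline was tested on simulated data. Sums over members got no test. Of gene IDs, 54495 were found in GENCODE M 21. Transcripts were aligned with mafft 7.526. RefSeq promoters matched 4 members. Every member is named; the genes most like the family were the 5 with the highest r, and called list genes are named by size of difference, at most 4 per list. The members and lists were chosen with earlier results of these data known.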

Additional observations from a re-analysis of the deposited data

Results flagged for a closer look

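Values that stood far from the rest of their group were looked for in 40 sets (9 members and the family sum in 4 groups of embryos). A set counted when the gap to the nearest embryo was large beside the whole range. Chance gives this in about 1 in 20 sets if values are normally distributed. The FPKM values were taken without a log and are skewed, so that rate does not carry over to them. It was met 13 times. In WT early embryos library 3 was the highest in 8 of them: Zscan4f at 103 FPKM, Zscan4-ps2 at 82.5, Zscan4c at 80.0, Zscan4-ps3 at 68.8, Zscan4d at 67.5, Zscan4a at 38.3, Zscan4e at 16.5 and the family sum at 481. The same library has the lowest median correlation with its group. In MZ-KO early embryos library 4 was the highest for Zscan4d at 33.6 FPKM, Zscan4b at 1.46 and the family sum at 140. In MZ-KO late embryos Zscan4d in library 1 was the highest at 9.33 FPKM and Zscan4f in library 4 the lowest at 3.5. As members move together and can share reads, these are not independent.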

How the results depend on the processing

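No paired analysis was possible because the columns carry a group but no replicate number. The alternatives were a pseudocount of 0.1, a filter at FPKM 5, no filter, median-ratio scaling, 1 fit over all 6 groups, a fit without trend and robust steps, and leaving out each library in turn. Outside leave-one-out, 347 of 375 values of single members kept their direction and side of the threshold. Of the 4 that took the other sign none was called: with pseudocount 0.1 Zscan4-ps1 between eggs (0.07) and Zscan4-ps2 from early to late in MZ-KO (0.05), and with median-ratio scaling the difference of genotype effects of Zscan4-ps2 (-0.18) and Zscan4a (-0.10).

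Counts of members called moved as follows, and the cause was not tested. In 1 fit over all 6 groups, which tested 9 members, the count was 1 early by genotype (Zscan4b), 1 late by genotype, 2 from early to late in WT and 1 in MZ-KO. Zscan4b passed the filter of that fit through early embryos alone, so its calls there are descriptions. With no filter it was 2 late by genotype, 1 from KO egg to early, 2 from early to late in WT and 1 in MZ-KO. Median-ratio scaling gave 1 from early to late in MZ-KO. The family sum difference from WT egg to early, 3.51, was 5.06 without Zscan4-ps1, an alternative chosen after seeing the data, as was the spread without WT early library 3.

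With 1 library left out the counts ranged from 2 to 6 late by genotype, 1 to 6 from KO egg to early, and 1 to 2 from early to late in each genotype. They were 0 throughout for the early genotype comparison. Estimates near 0 crossed it: Zscan4-ps1 between eggs (-0.70 to 0.36), from early to late in WT Zscan4-ps2 (-0.53 to 0.27), Zscan4c (-0.30 to 0.48) and Zscan4f (-0.36 to 0.36), in MZ-KO Zscan4-ps2 (-0.45 to 0.28) and Zscan4c (-0.60 to 0.18), and as the difference of genotype effects Zscan4-ps2 (-0.40 to 0.44), Zscan4a (-0.21 to 0.48) and Zscan4c (-0.72 to 0.09).

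Median-ratio scaling moved the share of higher among all calls from 59.3% to 48.3% for WT egg to early, from 59.3% to 48.8% for KO egg to early and from 58.9% to 33.9% for the late and early difference of genotype effects, and the median of all genes by over 0.1 there and from early to late in MZ-KO (0.39 to 0.11). At these depths Zscan4b and Zscan4e were detected in late embryos but too low to be tested.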
